A study of Mus musculus with 6 samples.

Results

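Lateral septum neurons chosen by detection of at least 4 of 6 genes were examined in nuclei of the mouse septal area. Ano2 and Ntf3 were among the 6 genes, and 407 of the 2011 chosen nuclei held all 6. A barcode was first gated as a lateral septum neuron when it held at least 500 detected genes, at most 5% mitochondrial UMIs, at least 2 UMIs of Gad1 and Gad2 together, at least 6 UMIs of Trpc4 and Dgkg together, and no UMI of Slc17a6. A UMI, or unique molecular identifier, is a tag that marks 1 captured RNA molecule. From these gated nuclei the population took those with at least 4 of the 6 genes Ano2, Ntf3, Col15a1, Matn2, Adamtsl1 and Slc26a4 detected by 1 UMI or more. The rule chose 2011 nuclei among 13740 gated nuclei, 54605 nuclei passing the filters on genes and mitochondrial UMIs, and 55537 barcodes in all. The 6 genes came from earlier results on these same nuclei, so their levels describe the choice and support nothing by themselves.

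The lateral septum is a forebrain nucleus of mostly GABAergic projection neurons that receives dense input from the hippocampus and sends axons to the hypothalamus and midbrain. Gad1 and Gad2 encode the enzymes that make GABA, Trpc4 a cation channel opened downstream of phospholipase C, Dgkg a kinase that removes diacylglycerol, and Slc17a6 a vesicular glutamate transporter. Among the 6 selecting genes, Ano2 encodes a calcium-activated chloride channel, Slc26a4 the anion exchanger pendrin, and Ntf3 the secreted growth factor neurotrophin 3. Col15a1 encodes a collagen of basement membrane zones, Matn2 a matrilin that links matrix filaments, and Adamtsl1 a secreted matrix protein related to the ADAMTS proteases.

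All 6 libraries were made from wild type mice, from brain tissue labelled as septal area, and form 1 group. The sources used here do not give age, sex, number of animals or dissection. They were made by droplet capture with 3' v3 chemistry and are called nuclei on the word of the series title, since the protocol speaks of cells. Nothing states that the libraries came from separate animals, so each p-value below measures only the spread between these libraries, which may be technical. With no contrast between samples in the labels, the population was compared within each library with other gated nuclei.

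The libraries held 7393 to 11134 barcodes and 70183544 to 95175260 UMIs each. Pairs of libraries shared 12 to 43 barcodes, at most 0.433% of the smaller library, and members of different libraries shared 0. Replicate 4 stood apart in its deepest nuclei: 33 of its members held more than 50000 UMIs and supplied 31.2% of its member UMIs, against 11 to 17 members and 11.2 to 15.5% in the other libraries. For some genes, values are also given without those nuclei or that library.

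The population was found in every library at a similar share. It numbered 250 to 437 nuclei per library and made up 14.6 ± 1.32% (SD, n = 6) of the gated nuclei, from 13% in replicate 6 to 16.7% in replicate 1. The exact Clopper-Pearson 95% intervals of these extremes, which cover counting error only, were 11.5 to 14.6% and 15.1 to 18.4%, which did not overlap. Of all nuclei passing the filters the population made up 3.68 ± 0.329% (SD, n = 6). A further 276 nuclei held at least 4 of the 6 genes outside the lateral septum gate and were not counted.

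Markers of lateral septum and GABAergic neurons that the rule did not use were read in members and in a reference. Each member had a reference nucleus with the closest total UMI count in its own library, taken from gated nuclei with fewer than 4 of the 6 genes. Members had a median of 18493.5 to 22170 UMIs per library and the reference 18492 to 22168, while all other gated nuclei had 12906 to 16037. The deepest nuclei were less well matched, since in every library the deepest member exceeded the deepest reference nucleus. In replicate 4 these held 251563 and 166414 UMIs, and the class sums were 9350117 and 8436947 UMIs. Levels are given as CPM, counts per 1000000 UMIs summed over the nuclei of 1 library and class. The lateral septum markers Homer2, Prkcd, Zic1 and Zic4 summed to 429 ± 23.2 CPM in members and 317 ± 16.2 CPM in the reference (SD, n = 6). By edgeR's quasi-likelihood test at adjusted p below 0.05, 4 of 4 were higher in members, against 15.1% of all genes tested. The GABAergic marker Slc32a1, the vesicular GABA transporter, stood at 13.9 ± 1.31 against 14.7 ± 2.24 CPM and did not pass (edgeR adjusted p = 0.86). Members and reference passed the same gate, so this comparison cannot test the label of lateral septum GABAergic neurons. It describes members beside other gated nuclei.

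Of the 14 marker lists of other cell types, 13 had at least 1 marker high enough to test, and 11 of these held no gene called higher in members, although the cortical glutamatergic and pericyte lists had only 1 tested marker each. The subcortical glutamatergic list had none tested and summed to 0.666 CPM in members. The 5 medial septum GABAergic markers summed to 109 ± 15.9 CPM in members and 278 ± 39.5 in the reference, with ranges of 87.5 to 134 and 245 to 356 and most of the sum from Kcnc2, and the 4 cholinergic markers to 8.77 ± 2.81 and 22.6 ± 7.28 CPM. The 5 oligodendrocyte markers summed to 266 ± 50.9 and 311 ± 65.1 CPM and the 5 astrocyte markers to 372 ± 72.1 and 424 ± 98.8 CPM, with overlapping ranges (200 to 349 against 241 to 419, and 299 to 508 against 340 to 604). Compared within libraries, 4 of the oligodendrocyte and 2 of the astrocyte markers were called lower in members and 0 higher. Over all genes tested, 15.1% were called higher and 15.4% lower. In lists of at most 5 markers, 0 called higher lies near that share and says little about identity. The exceptions, lists with a gene called higher, were the striatal list, by Drd2, and the fibroblast list. The 5 striatal markers summed to 72.4 ± 7.13 and 71.4 ± 6.60 CPM. Of these, Rgs9 (21.6 against 37.7 CPM) and Drd1 (1.97 against 3.68 CPM) were called lower in members. The fibroblast list stood at 4.29 ± 0.514 against 3.26 ± 1.20 CPM, and Col1a1 was its tested and called gene. The fibroblast genes Dcn and Col3a1 stood at 0.476 and 0.0404 CPM in members. No listed marker outside the rule was at 0 in members over all libraries. Predicted doublets, barcodes that resemble the sum of a pair of nuclei, made up 7.6 to 14.7% of members and 10.8 to 16.8% of reference nuclei per library. Their share was higher in the reference than in members in every library. They included 213 members in all and were kept as the rule says.

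The selecting genes differed in how fully they covered the population. Ano2 was detected in 99.2 ± 0.526% of members, Adamtsl1 in 97.9 ± 0.611% and Matn2 in 92.7 ± 0.610%, while Ntf3 was detected in 72.0 ± 2.60%, Col15a1 in 58.6 ± 1.81% and Slc26a4 in 52.3 ± 2.41% (SD, n = 6). In the other gated nuclei, which the rule allows up to 3 of the genes, Ano2 was detected in 45.5% and Adamtsl1 in 48.0%, against 6.35% for Ntf3, 5.5% for Col15a1 and 3.69% for Slc26a4. Ano2, Adamtsl1 and Matn2 were thus spread beyond the population, and Ntf3, Col15a1 and Slc26a4 were sparse outside it.

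In CPM, Ano2 stood at 464 to 565 in members with a median of 535 over libraries, and at 76.7 to 106 with a median of 99.3 in the reference. Ntf3 stood at 65.5 to 102 with a median of 87.5 in members and at 3.15 to 9.14 with a median of 6.13 in the reference. Replicate 4 was the lowest library for both genes in members, and members and reference did not overlap for either. The mean levels of Slc26a4 were 46.5 ± 5.04 CPM in members and 1.68 ± 0.701 in the reference, and those of Col15a1 were 63.4 ± 7.67 and 3.96 ± 1.26 (SD, n = 6). Among the gate genes, Dgkg stood at 1370 ± 98.2 CPM in members and 713 ± 44.5 in the reference, and Trpc4 at 826 ± 44.5 and 697 ± 32.9. Gad1 was at 167 ± 8.05 and 173 ± 9.28 CPM and Gad2 at 244 ± 15 and 270 ± 19.1 CPM, lower in members in 6 of 6 libraries for Gad2. None of these values was tested, since they chose the nuclei.

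**Figure D1:**
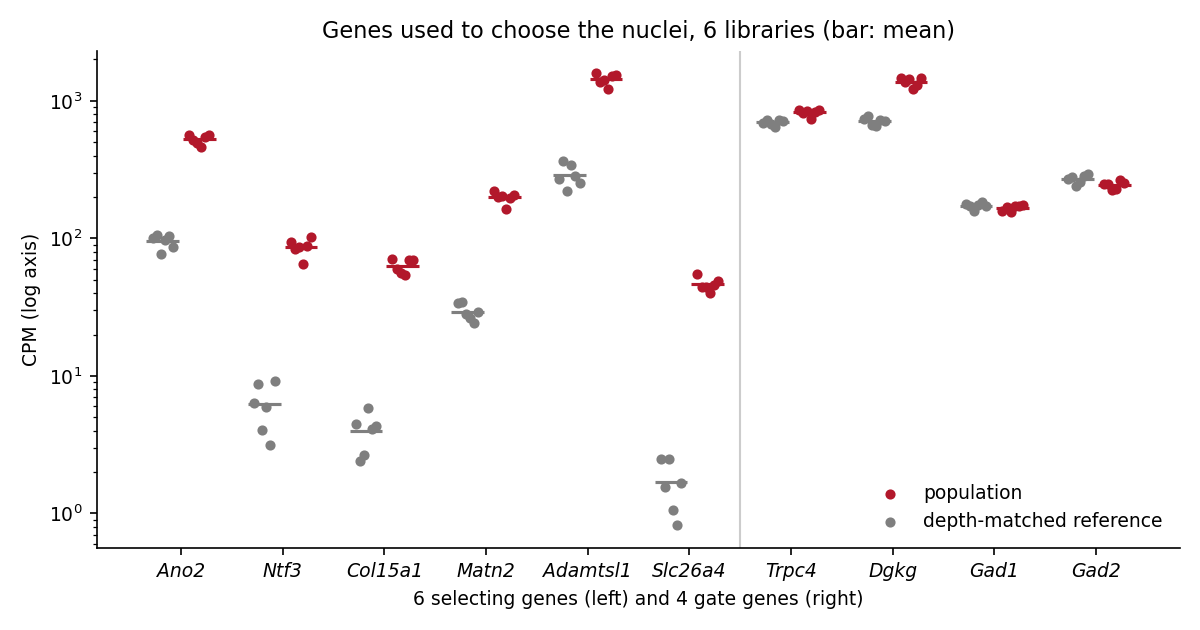
CPM on a log axis (vertical) of the 6 selecting genes and 4 gate genes (horizontal) in each of the 6 libraries, red points for the population and gray points for the depth-matched reference, with bars at the means. Points are to be compared within a gene: Ano2 sits between 464 and 565 CPM in the population and between 76.7 and 106 in the reference, while Gad1 and Gad2 lie much closer in both.

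The selecting genes were also detected together when each was left out of the choice in turn. For this the left-out gene was read from nuclei thinned to 8000 UMIs, because a deeper nucleus shows more genes. Nuclei with fewer UMIs were left out. The gate and the count of the other 5 genes still used unthinned UMIs, so the grouping itself was not made equal in depth. Among gated nuclei with at least 3 of the other 5 genes, Ntf3 was detected in 27.9 ± 2.10%, and among those with at most 1 of the other 5 in 3.02 ± 0.582% (SD, n = 6). Without thinning these shares were 42.2 and 5.25%. The thinned pair was 17.6 and 1.88% for Slc26a4, 21.3 and 2.75% for Col15a1, 55.6 and 16.3% for Matn2, 86.9 and 32.1% for Ano2, and 85.5 and 36.0% for Adamtsl1. Unthinned, these 5 genes gave 29.4 and 2.99%, 33.6 and 4.99%, 71.7 and 25.0%, 92.7 and 41.0%, and 89.4 and 44.4% in the same order.

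As a measure of free RNA, 4454 nuclei gated as oligodendrocytes by Mog and Mag, with a median of 3486.5 to 4531 UMIs per library, gave an unthinned 0.583 ± 0.192% for Ntf3, 0.374 ± 0.205% for Slc26a4 and 4.37 ± 0.975% for Ano2. Gated nuclei with at most 1 other gene, which were deeper at 11801 to 14873 UMIs in the case of Ntf3, lay above those shares for each of these genes. Adamtsl1 was detected in 78.2 ± 3.37% of the oligodendrocyte nuclei at 478 ± 18.2 CPM and therefore did not separate the population from oligodendrocytes. The 6 genes were picked for going together in these nuclei, and these shares describe that choice.

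Membership also followed depth. The gated nuclei split into 2656, 3965, 3303, 1805, 964, 640 and 407 with 0 to 6 of the genes, so there was no gap between the population and its neighbours. Median UMIs per library were 11172 to 14322.5 at 0 genes and 23317 to 27677 at 6 genes. Just inside the threshold, the 964 nuclei with 4 genes had median depths of 16994 to 19300 UMIs, Ano2 at 384 CPM and Ntf3 at 52.3 CPM. Just outside, the 1805 nuclei with 3 genes had 16037 to 18981 UMIs, Ano2 at 233 CPM and Ntf3 at 18.2 CPM.

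Genes outside the rule were compared between the 2011 members and the 2011 matched reference nuclei, summed per library, with edgeR's quasi-likelihood test and the library as a block. Of 14766 genes tested, 4507 (30.5%) passed an adjusted p of 0.05, 2234 of them higher in members (15.1%) and 2273 lower (15.4%). A fold of at least 2 was reached by 197 higher genes (1.33%) and 329 lower genes (2.23%). The ranges of the 6 libraries did not overlap for 2064 genes (14.0%), and the median log2 difference over all genes was -0.007. Without nuclei above 50000 UMIs, a setting chosen after seeing the data, 4873 genes were called, 678 of them at least 2-fold, and without replicate 4 4351 and 617. Since the 6 genes had been found on these nuclei, a gene that varies with them was bound to differ, and the test says how steady a difference was over libraries and not whether the population is a separate type. The reference mixes all other kinds of gated nuclei, so a lower gene may be a gene of any of these.

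Hmcn1 and Ndnf had the largest log2 differences among the named genes that were higher in members. Hmcn1, which encodes the extracellular matrix protein hemicentin 1, stood at 53.5 to 99.4 CPM in members with a median of 68.4, and at 3.99 to 15.9 with a median of 6.91 in the reference. The libraries did not overlap, and replicate 6 was the highest for members and the lowest for the reference. The difference was 3.06 ± 0.17 on the log2 scale (SE; edgeR adjusted p = 4.2e-10), an 8.37-fold level. Ndnf, a secreted neurotrophic factor gene, stood at 39.6 to 64.0 CPM (median 49.7) in members and at 3.16 to 10.1 CPM (median 7.13) in the reference. Replicate 4 was the lowest of the members, the classes did not overlap, and the difference was 2.86 ± 0.109 (SE; edgeR adjusted p = 7.7e-12).

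Col6a3, a collagen VI chain that also marks another lateral septum subset, was at 69.2 ± 12 CPM in members and 14.3 ± 3.19 in the reference (SD, n = 6), 4.93-fold higher. Fgf10, a secreted fibroblast growth factor, was at 31.1 ± 8.72 and 6.88 ± 1.04 CPM, 4.64-fold higher. Both were higher in 6 of 6 libraries without overlap. Col23a1, a transmembrane collagen, was 3.01-fold higher (178 ± 28 against 60.9 ± 10.02 CPM).

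As a group the collagens and basement membrane genes were not shifted one way. Of 37 tested, 12 were higher and 15 lower in members with a median log2 difference of 0.0, against 15.1% higher, 15.4% lower and a median of -0.007 over all genes. Col11a1 was the most strongly lower gene of the list at 20 CPM or more, at 13.9 ± 5.87 CPM in members and 39.9 ± 3.59 in the reference. Its member level was 24.9 CPM in replicate 4, and its log2 difference of -1.50 became -1.72 without that library and -2.11 without nuclei above 50000 UMIs. Of 21 tested matrilins, ADAMTS genes and matrix proteoglycans, 2 were higher (9.52%) and 8 lower (38.1%), with a median of -0.19. Tnr, the perineuronal matrix protein tenascin R, was higher at 841 ± 32.8 against 580 ± 50.0 CPM, while the proteases Adamts6 and Adamts3 were lower at 19.9 ± 3.54 against 43.6 ± 8.12 and 42.7 ± 5.73 against 75.6 ± 6.82 CPM. The fibroblast genes given above are the measure of fibroblast RNA beside these lists, and its part in them was not tested.

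Several receptor genes were higher in members. Glp1r, the receptor of glucagon-like peptide 1, stood at 20.7 to 30.03 CPM with a median of 26.4 in members and at 3.73 to 6.82 with a median of 4.68 in the reference. Replicate 4 was again the lowest of the members and the classes did not overlap. The difference was 2.45 ± 0.115 on the log2 scale (SE; edgeR adjusted p = 7.2e-11), or 5.45-fold. Met, the receptor tyrosine kinase of hepatocyte growth factor, stood at 55.4 to 62.8 CPM (median 57.9) against 9.57 to 17.8 CPM (median 14). Its members varied little between libraries, the classes did not overlap, and the fold was 4.27 (edgeR adjusted p = 1.6e-11).

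Htr1b, an inhibitory serotonin receptor, was 3.97-fold higher at 25.9 ± 2.72 against 6.67 ± 1.28 CPM. Chrm3, a muscarinic acetylcholine receptor coupled to phospholipase C, was 2.44-fold higher at 1122 ± 99.9 against 473 ± 37.8 CPM. Drd2, the D2 dopamine receptor, was 1.73-fold higher at 46.9 ± 3.42 against 27.9 ± 3.74 CPM.

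The receptor families as wholes are read against the 15.1% higher and 15.4% lower of all genes. Of 22 neuropeptide receptors tested, 2 were higher (Glp1r and Crhr1, the latter named after its value was seen; 9.09%) and 9 lower (40.9%), with a median log2 difference of -0.118. Of 21 monoamine and acetylcholine receptors, 4 were higher (19%) and 10 lower (47.6%), with a median of -0.25. Drd3, the D3 dopamine receptor, was among the lower ones at 7.65 ± 3.45 CPM in members and 19.8 ± 7.28 in the reference, without overlap. Of 23 glutamate receptors, 11 were higher (47.8%) and 5 lower (21.7%), with a median of 0.085, and Grik1 and Grin3a, a kainate and an NMDA receptor subunit, were 2.39-fold and 2-fold lower.

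Hormone receptors were split. Of 16 tested, 5 were higher (31.2% against 15.1% of all genes) and 8 lower (50.0% against 15.4%), with a median of -0.205. Ghr, the growth hormone receptor, was at 560 ± 41.1 CPM in members and 288 ± 16.7 in the reference, and Nr3c2, the mineralocorticoid receptor, at 932 ± 88.5 and 572 ± 35.7 CPM (SD, n = 6). Both were higher in 6 of 6 libraries with no overlap. Esr1, the estrogen receptor alpha, was 2.52-fold lower at 5.06 to 10.4 CPM (median 6.47) against 13.6 to 26.2 CPM (median 18.9), and these ranges did not overlap either (edgeR adjusted p = 8.4e-07).

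The neurotrophin system around Ntf3 showed small differences. Ntrk3, the receptor TrkC that neurotrophin 3 prefers, was abundant in both classes at 672 ± 23.1 CPM in members and 722 ± 13.5 in the reference, and its log2 difference of -0.061 ± 0.03 did not pass (edgeR adjusted p = 0.15). Ntrk2, the receptor TrkB, was at 845 ± 35.6 and 821 ± 46.3 CPM with a log2 difference of 0.083 ± 0.033 (edgeR adjusted p = 0.065). Both genes overlapped between the classes, and both passed the threshold in some other settings, Ntrk2 in 5 of 17 and Ntrk3 in 3 of 17, with differences of at most 0.107 and 0.122 in size. Ngfr, the receptor p75, was at 0.149 ± 0.155 CPM in members and was too low to test.

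Of the 7 tested genes of the neurotrophin list, 2 were higher and 2 lower, 28.6% each way against 15.1 and 15.4% of all genes, with a median of -0.03. With 7 genes these shares differ from those of all genes by about 1 gene. Sorcs1, a sorting receptor of the sortilin family, was 1.19-fold higher (981 ± 77.3 against 847 ± 44.6 CPM) and its relative Sorcs3 1.27-fold lower (307 ± 21.5 against 400 ± 20.1 CPM). Sort1, which encodes sortilin, was 1.10-fold lower, a call that 8 of 17 other settings lost.

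The relatives of Ano2 did not move together. Ano1, a second calcium-activated chloride channel, stood at 348 to 430 CPM in members (median 410) and 206 to 256 CPM in the reference (median 234). The classes did not overlap, and Ano1 was 1.78-fold higher (log2 difference 0.83 ± 0.045, SE; edgeR adjusted p = 2.7e-10). Ano3 was 1.18-fold higher with overlapping ranges. Ano4 was 1.44-fold lower at 242 ± 24.5 against 360 ± 16.7 CPM, Ano5 1.34-fold lower at 10.4 ± 2.01 against 14.3 ± 1.34 CPM, and Ano10 1.14-fold lower. Ano5 overlapped between the classes, and its call was lost at 5 genes or more (log2 -0.296, edgeR adjusted p = 0.07). The Ano10 call was lost in 10 other settings and its sign turned in a further one. Ano6 at 150 ± 5.37 against 150 ± 8.13 CPM and Ano8 at 11.3 ± 1.87 against 12.6 ± 0.566 CPM did not pass, and Ano7 and Ano9 were too low to test.

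Of the 38 tested chloride channels and anion transporters, 8 were higher and 8 lower with a median of 0.022, so the share called in each direction (21.1%) was not far above that of all genes (15.1 and 15.4%). Clic4, a chloride intracellular channel protein gene, was 2.40-fold higher at 150 ± 10.6 against 64.0 ± 3.66 CPM. Kcng3, a modifying potassium channel subunit, was 3.77-fold higher at 41.6 ± 6.63 against 11.3 ± 1.89 CPM.

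Other potassium channel genes were lower: Kcnmb2, an accessory subunit of the large-conductance calcium-activated channel, was 3.63-fold lower (22.4 ± 3.70 against 85.9 ± 13.9 CPM), and Kcnip4, an A-type channel partner, 2.62-fold lower. Kcnc2, a channel of fast-spiking neurons that is also among the medial septum markers above, was 2.50-fold lower. Over the 36 tested potassium and HCN channel genes, 13 were higher (36.1% against 15.1% of all genes). A further 16 were lower (44.4% against 15.4%), and the median was -0.093. The calcium channel genes Cacnb2 and Cacna1e were 1.71-fold and 1.68-fold higher, and the alpha2delta subunit Cacna2d3 3.21-fold lower. Of 24 sodium and calcium channel genes tested, 9 were higher (37.5%) and 5 lower (20.8%, near the 15.4% of all genes). Cacna2d3 stood at 174 CPM in the members of replicate 4, and its log2 difference of -1.69 became -1.88 without that library and -2.24 without nuclei above 50000 UMIs.

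Axon guidance genes were among the lists with the most calls, in both directions. Of 35 tested, 15 were higher and 17 lower, which makes 91.4% called against 30.5% of all genes, with a median of -0.099. Every list but that of immediate early genes was called above 30.5%. Listed genes were not matched in level to all genes tested, so these shares are not a measure of the families alone. The repellent Slit1 stood at 258 to 308 CPM in members (median 289) and 80.7 to 107 CPM in the reference (median 95.8), while its family member Slit2 stood at 71.5 to 145 CPM (median 82.5) and 282 to 378 CPM (median 325). Neither gene overlapped between the classes, and replicate 4 was the highest library for Slit2 in members. Slit1 was 3.12-fold higher (log2 1.64 ± 0.044, SE; edgeR adjusted p = 2e-13) and Slit2 3.49-fold lower (log2 -1.80 ± 0.108, SE; edgeR adjusted p = 1.1e-09). Without nuclei above 50000 UMIs the Slit2 difference was -2.13 on the log2 scale. Epha3, an ephrin receptor, was 3.20-fold higher at 428 ± 65.7 against 137 ± 14.2 CPM.

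Synaptic adhesion genes were mostly lower. Of 36 tested, 4 were higher and 21 lower, or 11.1% and 58.3% against 15.1% and 15.4% of all genes, with a median of -0.463, and the split was 5 and 20 of 35 without nuclei above 50000 UMIs. Cntn5, a contactin, stood at 325 to 651 CPM in members and 1328 to 1788 in the reference, with no overlap and a 3.04-fold lower level. Cntn4 was 2.76-fold lower and Nxph1, a neurexin ligand, 2.67-fold lower, at 569 ± 110 against 1548 ± 74.8 CPM. Clstn2, which encodes the postsynaptic protein calsyntenin 2 and was on none of the lists, was 3.22-fold lower at 108 ± 27.9 against 351 ± 18.8 CPM. Among 21 cadherins and protocadherins, 6 were higher (28.6%) and 11 lower (52.4%) with a median of -0.241, and Pcdh11x and Cdh9 were 2.76-fold and 2.58-fold lower.

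Of 57 forebrain transcription factors tested, 16 were higher (28.1% against 15.1% of all genes) and 29 lower (50.9% against 15.4%), with a median of -0.29. Foxp2, a forkhead factor, stood at 48.0 to 142 CPM in members with a median of 56.6, and at 234 to 300 CPM with a median of 265 in the reference. The classes did not overlap, and replicate 4 at 142 CPM lay far above the other members. Its difference was -1.96 ± 0.166 on the log2 scale (SE; edgeR adjusted p = 7.3e-08), -2.27 without replicate 4 and -2.45 without nuclei above 50000 UMIs. Eya4, a transcriptional cofactor that marks another lateral septum subset, stood at 2.46 to 8.88 CPM (median 3.35) in members and 14.6 to 35.2 CPM (median 21.8) in the reference. Replicate 4 was again the highest of the members, with no overlap and a log2 difference of -2.39 ± 0.239 (SE; edgeR adjusted p = 5.4e-07), or -3.41 without nuclei above 50000 UMIs. Ndst4, an enzyme of heparan sulfate synthesis outside this list, was 4.08-fold lower.

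**Figure D2:**
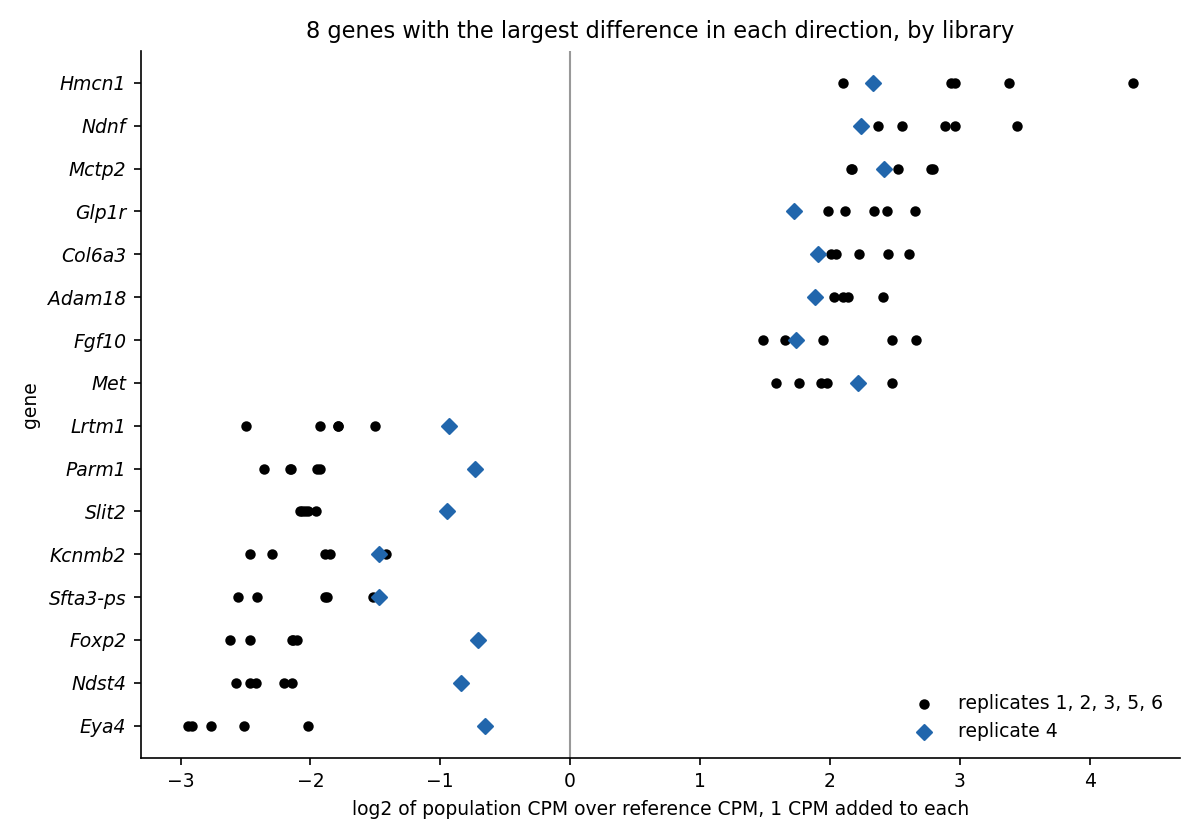
Log2 ratio of population CPM to reference CPM, with 1 CPM added to each (horizontal), for the 8 genes with the largest difference in each direction (vertical) in each of the 6 libraries, with replicate 4 as blue diamonds. All points lie on their gene's side of 0, and replicate 4 lies nearest to 0 for most lower genes, such as Foxp2 at -0.71 where the other libraries span -2.62 to -2.1.

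Other genes among the largest differences in each direction were of several kinds. Higher in members were Mctp2, a membrane protein with calcium-binding domains (44.0 ± 4.74 against 7.18 ± 1.55 CPM), Adam18, of the ADAM family (37.2 ± 2.82 against 8.09 ± 1.09 CPM), Eva1c (21.1 ± 3.62 against 5.57 ± 1.249 CPM) and Cald1, the actin-binding caldesmon (157 ± 11.5 against 44.0 ± 9.92 CPM). Lower in members were Sfta3-ps (11.2 ± 3.26 against 45.3 ± 6.93 CPM), Parm1 (12.2 ± 7.06 against 43.7 ± 5.57 CPM), Lrtm1 (7.07 ± 4.37 against 23.9 ± 5.03 CPM) and Glra3, a glycine receptor subunit (9.14 ± 2.89 against 31.0 ± 7.03 CPM). Each kept its direction in 6 of 6 libraries with no overlap. Lrtm1 stood at 15.6 CPM in the members of replicate 4, and its log2 difference of -1.75 became -2.06 without that library and -2.32 without nuclei above 50000 UMIs.

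**Figure D3:**
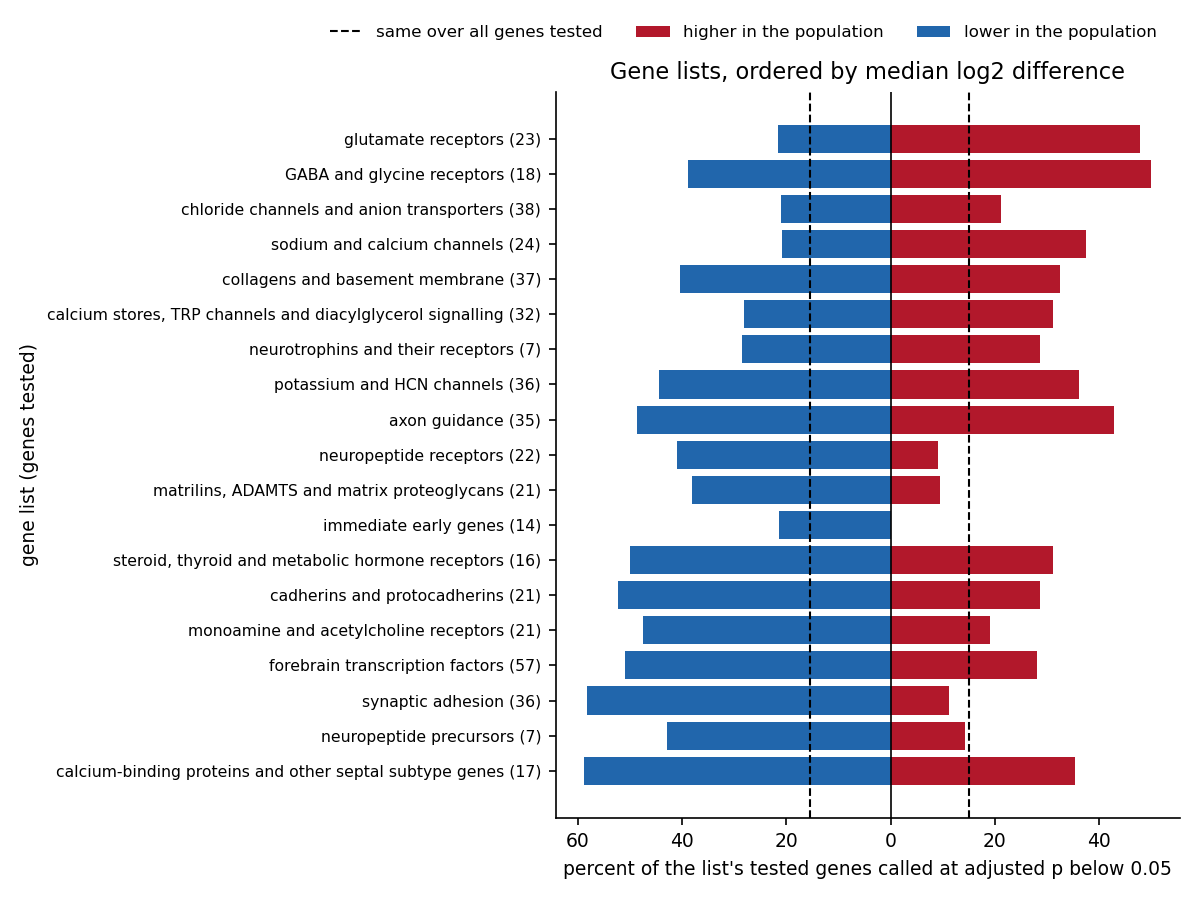
Percent of each list's tested genes that were higher (red, to the right) or lower (blue, to the left) in the population at adjusted p below 0.05, with the lists on the vertical axis ordered by their median log2 difference and the number of genes tested in parentheses. Dashed lines mark the shares over all genes, 15.1% higher and 15.4% lower, and synaptic adhesion shows the widest gap between sides among lists of 20 or more genes, with 11.1% higher and 58.3% lower.

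Genes that mark other lateral septum subsets were called in both directions. The mixed list of calcium-binding proteins and other septal subtype genes had 6 higher (35.3%) and 10 lower (58.8%) of 17 tested, with a median of -0.58, against 15.1 and 15.4% of all genes. Its most strongly higher genes, Adam18 and Met, were among the largest differences of this population. The list therefore does not stand for other subsets alone. Outside that list, Col6a3 was higher, as given above, and so was Prlr, the prolactin receptor, named after its value was seen (120 against 87.3 CPM, log2 0.50 ± 0.061, SE; edgeR adjusted p = 5.3e-06). Pax6 stood at 6.02 ± 2.67 CPM in members and 18.3 ± 5.29 in the reference, without overlap. Calcr, the calcitonin receptor, was 2.03-fold lower, Crhr2, a receptor of the urocortins, 1.52-fold lower and the neuropeptide precursor Nts 1.87-fold lower at 6.31 ± 2.05 against 12.4 ± 4.18 CPM. Calls of Nts and Crhr2 were lost at 3 genes instead of 4 and with a reference of nuclei with at most 1 of the genes, and that of Crhr2 also after thinning (log2 -0.48, edgeR adjusted p = 0.18). Sst, the somatostatin precursor, was low in both classes at 4.66 ± 0.892 and 2.96 ± 0.455 CPM and 1.60-fold higher in members. Col25a1 was 1.27-fold higher and Tll1 1.30-fold lower, both with overlapping ranges. The Tll1 call was lost at 5 genes or more (log2 -0.19, edgeR adjusted p = 0.44) and with no replicate block (edgeR adjusted p = 0.052). Tacr1 and Oxtr, receptors of substance P and oxytocin, did not pass, at 16.8 ± 4.46 against 19.8 ± 3.54 CPM and 1.32 ± 0.442 against 1.253 ± 0.293 CPM. Tacr1, at -0.186 on the log2 scale, was lower at -0.355 without replicate 1 (edgeR adjusted p = 0.021) and at -0.471 with predicted doublets removed (edgeR adjusted p = 0.015), and stood at -0.101 without replicate 3.

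Membership of the other subsets, each defined by 1 UMI or more of its genes, was compared as a description. Nuclei with both Col25a1 and Tll1 made up 18.8 ± 1.95% of members and 15.8 ± 2.29% of the reference (SD, n = 6), nuclei with both Pax6 and Eya4 1.46 ± 1.06% and 5.66 ± 0.685%, and nuclei with at least 2 of Calcr, Esr1 and Prlr 8.79 ± 1.31% and 13.5 ± 2.69%. These differences were not tested.

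Levels in the nuclei of those 3 subsets that were not members were set beside the population. Hmcn1 was at 6.04 ± 2.97, 8.99 ± 5.51 and 5.96 ± 2.38 CPM in the Col25a1 and Tll1, the Pax6 and Eya4, and the Calcr, Esr1 and Prlr nuclei, against 70.2 ± 15.8 in members. Glp1r was at 5.5 ± 1.99, 4.35 ± 2.03 and 2.98 ± 0.669 CPM, against 25.9 ± 3.40 in members. Ndnf was at 6.82 ± 2.21, 4.61 ± 1.96 and 4.96 ± 1.58 CPM, against 50.5 ± 8.61 in members. Col6a3 was at 17.8 ± 3.53, 5.12 ± 2.02 and 12.3 ± 3.18 CPM, and Met at 11.9 ± 3.75, 18.0 ± 7.89 and 5.85 ± 2.14 CPM, against 69.2 ± 12 and 58.3 ± 2.60 in members. The mean level of these 5 genes in members was above that in each of the 3 subsets. They had been named for their large differences from gated non-members, to which the 3 subsets belong. A higher mean in members was thus largely fixed by that choice and supports nothing by itself. The subsets were not matched to members on depth, and a subset marked by Col6a3 and Tacr1 was not compared. GABAergic nuclei outside the lateral septum gate had Fgf10 at 22.2 ± 4.10 CPM, near the 31.1 ± 8.72 of members, and Foxp2 at 683 ± 43.8 CPM. These differences were not tested.

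Across gated nuclei grouped by how many of the 6 genes they held, genes outside the rule followed different courses. Hmcn1 was flat at 9.78 ± 3.05, 8.75 ± 2.46, 8.59 ± 2.77 and 9.27 ± 4.75 CPM from 0 to 3 genes and then stood at 33.1 ± 5.58, 77.3 ± 29.2 and 126 ± 22.2 CPM at 4, 5 and 6 genes (SD, n = 6). Ndnf was at 2.24 ± 0.956 CPM at 0 genes, 19.7 ± 5.87 at 3, 61.1 ± 11.7 at 5 and 57.1 ± 15.7 at 6, and the last pair did not differ beyond its spread. Met was at 12.5 ± 3.66 CPM at 0 genes, 33.3 ± 5.96 at 3, 56.6 ± 5.70 at 4 and 53.4 ± 10.3 at 6. Foxp2 was at 387 ± 82.6 CPM at 0 genes, 138 ± 46.6 at 3 and 43.3 ± 38.8 at 5, and Eya4 at 46.8 ± 12.9, 8.16 ± 5.41 and 3.30 ± 2.48 CPM at the same steps. The threshold of 4 thus lay within a gradient for Ndnf, Met, Foxp2 and Eya4, and Hmcn1 first differed at it. Depth was also higher along the same axis, as given above, and its part in these courses was not tested.

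**Figure D4:**
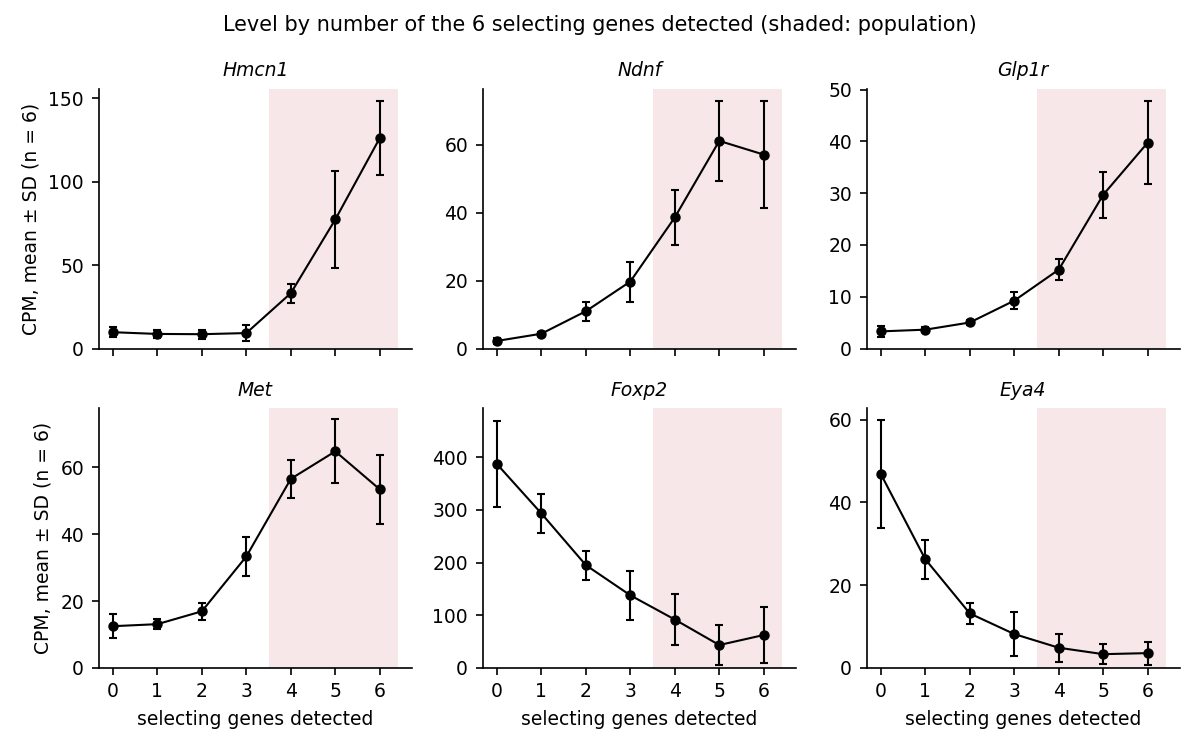
CPM (vertical, mean ± SD over 6 libraries) of 6 genes outside the rule in gated nuclei with 0 to 6 of the selecting genes detected (horizontal), with the population shaded. Hmcn1 stays near 9 CPM up to 3 genes and stands at 126 at 6, Ndnf, Glp1r and Met are already higher at 3 genes than at 0, and Foxp2 and Eya4 are lower at each step up to 5 genes.

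The members were not uniform among themselves. Leiden clustering of the members alone, without the 11 genes of the rule, gave 13 clusters of 67 to 329 nuclei, each present in all 6 libraries. Their leading genes come from the same nuclei and are a description only. Cluster 1 (329 nuclei, 14.1 to 21.2% of members per library) was led by Hmcn1, with Slit1 and Met among its first 10 named and unnamed genes, and 74.8% of its nuclei held 5 or 6 of the selecting genes. Cluster 3 (183 nuclei) was led by Thsd7a, and Col15a1 was at 161 CPM and Glp1r at 70.0 CPM, the highest of any cluster for both, with 86.9% of nuclei at 5 or 6 genes.

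The genes that led the comparison did not share the same clusters. Hmcn1 was highest in clusters 6, 1 and 10 at 246, 199 and 165 CPM, and Ndnf in clusters 5, 9 and 3 at 147, 118 and 96.2 CPM. Cluster 10 (107 nuclei) held Hmcn1 but had Ndnf at 3.32 CPM, and cluster 9 (114 nuclei) held Ndnf but had Hmcn1 at 4.09 CPM. Met was highest in cluster 9 at 259 CPM and was at 127 CPM in both clusters 1 and 10. Col15a1, although a selecting gene, was at 5.91 CPM in cluster 9 and 6.62 CPM in cluster 5, near the 3.96 CPM of the reference, while Ntf3 there was at 119 and 89.98 CPM.

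Some clusters carried genes that were lower in members as a whole or belonged to other cells. Cluster 2 (310 nuclei, 36.8% with 5 or 6 genes) had Clstn2 and Slit2 among its leading genes, with Foxp2 at 156 CPM against 11.1 in cluster 1. Cluster 4 (181 nuclei) was led by oligodendrocyte genes such as Bcas1 and Aspa, had Mog at 85.7 CPM against 2.95 in cluster 1, and 69.6% of its nuclei were predicted doublets. Cluster 11 (82 nuclei) was led by the astrocyte gene Slc1a3, had Slc1a2 at 1106 CPM, and 68.3% were predicted doublets. In the other 11 clusters predicted doublets made up at most 8.39%. Genes of other lateral septum subsets were also high in some of these. Tacr1 was at 82.8 CPM in cluster 5 (164 nuclei), where Ndnf was highest, against 11.9 in the remaining members. Cluster 13 (67 nuclei) had Calcr at 32.1, Esr1 at 20.1 and Tll1 at 118 CPM, against 4.07, 7.23 and 20.6 in the remaining members. With predicted doublets removed before matching, 4399 genes were called in the comparison, and Hmcn1, Ndnf and Glp1r stood 3.14, 2.80 and 2.45 higher on the log2 scale.

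**Figure D5:**
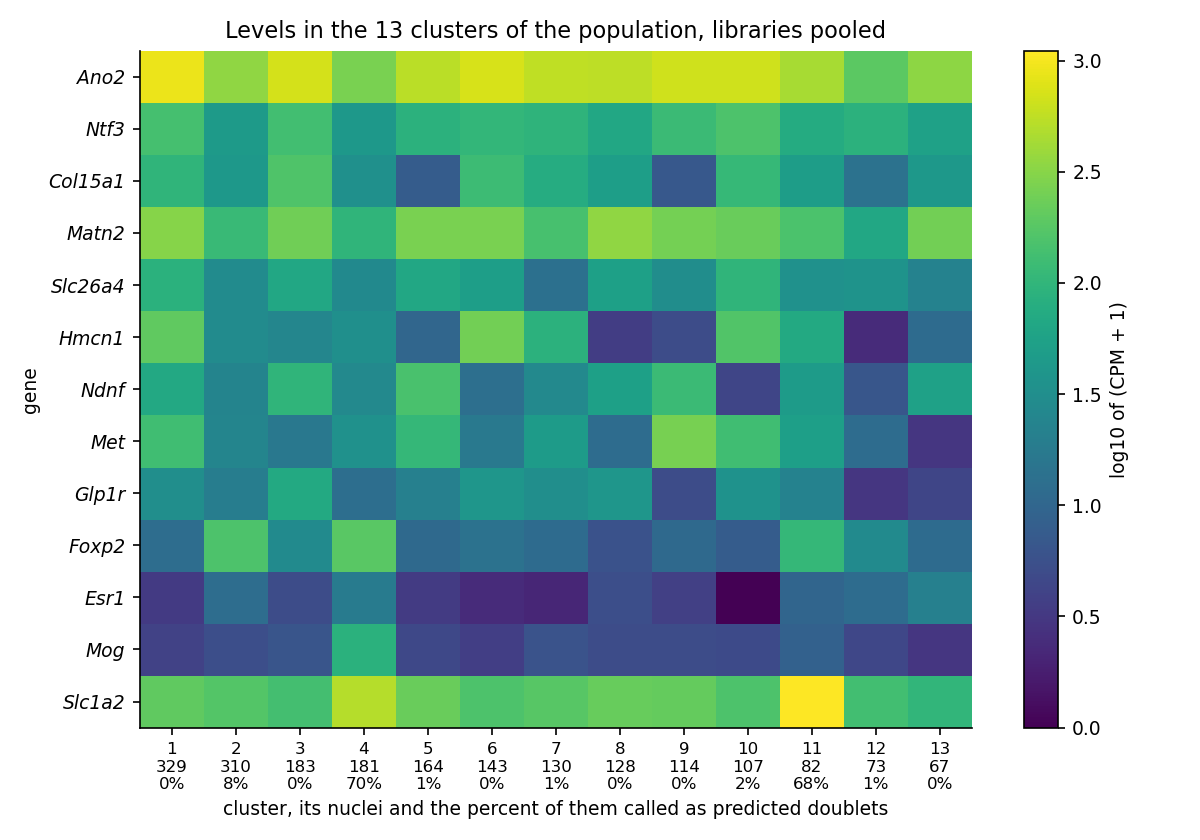
Log10 of CPM plus 1 (color) of genes (vertical) in the 13 clusters of the population (horizontal, with nuclei and percent of predicted doublets under each cluster number), libraries pooled. Hmcn1 is high in clusters 1, 6 and 10 and Ndnf in clusters 3, 5 and 9, and clusters 4 and 11, with 69.6 and 68.3% predicted doublets, show the oligodendrocyte gene Mog and the astrocyte gene Slc1a2.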

How the data were processed

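Raw UMI counts were used as deposited; per the file headers they came from Cell Ranger 5.0.0, while the submitters' processing notes name Cell Ranger 3.1.0 and STAR. The sources used here do not give the genome build or whether introns and strand entered the counts, so overlapping genes cannot be told apart. The members and the gene lists were chosen with earlier results of these data known. Counts were summed per library and class and tested with edgeR 4.0.16 (quasi-likelihood, TMM, filterByExpr, library as a block because both sums of a pair come from the same library), with Benjamini-Hochberg adjustment over 14766 genes and the 11 genes of the rule left out. Tested on simulated data with 14745 genes for this comparison, the fit recovered 30% of genes changed 1.25-fold, 84% at 1.5-fold and 96% at 2-fold, and called 0.055% of unchanged genes. The simulation gave all genes the same dispersion, drew the sums independently and changed 50 genes at each of these folds. These rates may therefore not hold for the real counts. Doublets were predicted per library with scrublet in scanpy 1.11.5 at an expected 0.8% per 1000 barcodes; 48.0 to 55.9% of simulated doublets passed its threshold, so doublets remain. Clusters used leidenalg 0.10.2 (1500 genes, 20 components, resolution 0.6). Named genes were those of the rule, the 12 largest differences each way among called genes with the same direction in 6 libraries and at least 20 CPM, up to 3 called genes per list, and chosen relatives of Ano2, receptors of Ntf3 and septal subset genes. Alternatives were DESeq2 1.42.0, other factors, filters, thresholds and references, thinning to 3000 UMIs and leaving out each library. Some genes named by this rule are not reported here.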

Additional observations from a re-analysis of the deposited data

Results flagged for a closer look

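In all, 5 values stood apart, all from replicate 4. In this library the log2 ratio of population to reference CPM (1 CPM added to each) was -0.839 for Ndst4, where the other 5 libraries spanned -2.58 to -2.14. It was -0.71 for Foxp2 against -2.62 to -2.1, -0.951 for Slit2 against -2.08 to -1.96, -0.737 for Parm1 against -2.36 to -1.92, and -1.01 for Cntn4 against -1.71 to -1.45. In each case the gap between replicate 4 and the nearest library exceeded the share of the whole range that marks an outlying value among 6. Of 80 values checked 5 were marked, and chance marks about 1 in 20. Replicate 4 also had 33 members above 50000 UMIs, against 11 to 17 elsewhere, and its deepest member held 251563 UMIs against 149747 at most in the other libraries. Its members had the highest share of predicted doublets as well, 14.7% against 7.6 to 12.1%. The part of depth or doublets in the 5 values was not tested. Without nuclei above 50000 UMIs the fitted log2 differences of these genes were -2.52, -2.45, -2.13, -1.95 and -1.72 in the order given, and without replicate 4 they were -2.35, -2.27, -2.0, -2.17 and -1.57.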

How the results depend on the processing

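The 4507 called genes became 2798 with DESeq2 (1427 higher and 1371 lower) and 1910 with nuclei thinned to 3000 UMIs (966 and 944), where 8559 genes could be tested. Genes called at 2-fold or more numbered 526, but 797 with no filter on low counts and 300 after thinning. Every other setting stayed within 1.5 times, with 3855 to 4351 called genes when 1 replicate was left out and 3712 with no replicate block. Without a replicate 1916 to 2165 were higher, 1939 to 2186 lower and 506 to 617 at 2-fold or more. The share of the population among gated nuclei, 14.6%, was 7.65% at 5 genes or more, 27.7% at 3 or more, 12.6% with Trpc4 and Dgkg at 3 UMIs or more, 18.5% at 12 or more and 5.15% after thinning (105 of 2022 nuclei), so it is a share of this rule at this depth. Over 79 tested named genes and 17 settings, 1293 of 1332 values kept direction and side of the threshold, 27 lost the call and 11 gained it, over 11 genes. Ano10 turned from -0.182 to 0.098 on the log2 scale after thinning. The causes were not tested. With 1 group of wild type libraries, no condition could be compared.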

Other observations

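Genes for GABA and glycine receptors were called in both directions: of 18 tested, 9 were higher (50.0% against 15.1% of all genes) and 7 lower (38.9% against 15.4%) in the population, with a median log2 difference of 0.067. Gabrb2, a beta subunit of the GABA-A receptor, was at 274 ± 32.5 CPM in members and 447 ± 27.7 in the reference (SD, n = 6), lower without overlap. Among 32 genes of calcium stores, TRP channels and diacylglycerol signalling, the family of Trpc4 and Dgkg, 10 were higher (31.2%) and 9 lower (28.1%), with a median of -0.007. Trpm3, a steroid- and heat-sensitive cation channel, was 2.44-fold higher at 3777 to 4766 CPM (median 4654) against 1722 to 2132 CPM (median 1923), with no overlap. Trpc7, a relative of Trpc4, was 1.88-fold lower at 12.1 ± 2.05 against 23.6 ± 2.68 CPM, and Plcl1 1.78-fold lower with overlapping ranges. The log2 difference of Plcl1 was -0.83, and it was -0.90 without replicate 4 and -1.13 without nuclei above 50000 UMIs.

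Of 14 immediate early genes tested, which rise with neuronal activity, 0 were higher and 3 lower by edgeR, with a median of -0.192. The 21.4% lower lies near the 15.4% of all genes. Nr4a3 was 1.86-fold lower at 13.4 ± 4.55 against 25.6 ± 7.04 CPM, and its call was lost when nuclei with 3 of the 6 genes were counted as members.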
